A study of Homo sapiens with 9 samples.

Results

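The 77 genes described here encode the proteins of the mitochondrial ribosome that carry an MRPL or MRPS symbol, that is, every row of the deposited count table whose name was MRPL or MRPS followed by a number and, at most, 1 letter from A to C. They were 77 of the 38021 genes in the table. RNA was sequenced from 786O cells, an established human line of clear cell renal carcinoma without working VHL, in which HIF2α therefore persists at normal oxygen. All 9 libraries came from cells that had been infected with a PLKO.1 lentivirus, selected in puromycin at 2.5 µg/mL and then kept in it at 1.25 µg/mL. The hairpin was a control (shControl), was directed at ARNT (shARNT) or was directed at BMAL1 (shBMAL1), with 3 libraries per group that the labels call biological replicates. Effects of a hairpin beyond its target were not tested. ARNT and BMAL1 (gene symbol ARNTL) are related proteins that pair with other factors to bind DNA, and the design asks what each contributes to expression in cells driven by HIF2α. The labels do not say whether replicates were separate infections, so the p-values measure the spread between these libraries, which may be technical. The libraries are bulk samples of 1 cell line, in which fewer cells with a transcript and less of it per cell cannot be told apart.

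The mitochondrial ribosome makes the few proteins encoded by mitochondrial DNA, all of them subunits of the respiratory chain and ATP synthase. Its RNA comes from mitochondrial DNA, while its proteins are encoded in the nucleus, made in the cytosol and imported. Many of them descend from bacterial ribosomal proteins and others exist only in mitochondria. Symbols do not always follow the subunit: MRPS18A and MRPS30 are parts of the large subunit. MRPS36 is a subunit of the 2-oxoglutarate dehydrogenase complex rather than a ribosomal protein, and it was kept because the rule takes it. This left 50 genes of the large subunit, 26 of the small subunit and MRPS36.

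The libraries held 33793043 to 35444731 reads, and every one of the 77 genes had reads in all of them, with counts from 106 to 9385. The targeted genes fell in their own groups. ARNT had normalised read counts of 2187, 2551 and 2318 in shControl and 1239, 1238 and 1199 in shARNT (log2 fold change -0.94 ± 0.07 SE, adjusted p = 8.83e-35). ARNTL had 752, 797 and 735 in shControl and 346, 292 and 339.8 in shBMAL1 (log2 fold change -1.23 ± 0.11 SE, adjusted p = 2.51e-25). Each was also lower in the other knockdown, ARNT in shBMAL1 (log2 fold change -0.23 ± 0.08 SE, adjusted p = 0.0187) and ARNTL in shARNT (log2 fold change -0.26 ± 0.10 SE, adjusted p = 0.0294). Of the markers of a renal carcinoma line, PAX8, PAX2, KRT8, KRT18, VIM and EPAS1 were present in every library, while the HIF targets CA9 and NDUFA4L2 stood at 16.9 to 290 and 5.85 to 28.2 counts. Of these 8 markers 4 were lower and 1 higher in shARNT, 50% and 12.5% beside 19.0% and 16.5% of all genes tested. In shBMAL1 3 were lower and 2 higher, 37.5% and 25% beside 19.4% and 17.4%. CA9 changed most, with log2 fold changes of -2.85 in shARNT and 1.05 in shBMAL1, and PAX8 had -0.49, KRT18 -0.40 and PAX2 0.43 in shBMAL1. Of 7 markers of other cell types, CD3E and CDH5 were at 0 in every library, and PTPRC, LRP2 and PECAM1 stayed under 9 counts. CUBN lay between 42.5 and 117 and was just called higher in shBMAL1, with groups that overlapped (log2 fold change 0.62 ± 0.29 SE, adjusted p = 0.0951 by DESeq2). CD68, which is not restricted to macrophages in cultured lines, lay between 5325 and 7882 and was lower in shBMAL1 (log2 fold change -0.31). The part of these markers in the members' values was not tested.

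Promoter sequences are shown for 4 genes whose values the results turn on, namely the member with the largest fall in shBMAL1 (MRPS27), the largest rise in both knockdowns (MRPS6) and the largest rise in shBMAL1 over shARNT (MRPS18A), and the 1 that fell in shARNT (MRPL14). They were read from RefSeq (GRCh38.p14), run 5′ to 3′ in the direction of the gene from 120 bases before the transcription start to 30 bases from the start onward, and have capitals where a searched motif lies wholly inside the window. MRPS27 lies at chr5:72320211-72320360 on the minus strand, MRPS6 at chr21:34073458-34073607 on the plus strand, MRPS18A at chr6:43687762-43687911 on the minus strand and MRPL14 at chr6:44127279-44127428 on the minus strand. MRPL14 has other listed starts, and its first was used.
MRPS27: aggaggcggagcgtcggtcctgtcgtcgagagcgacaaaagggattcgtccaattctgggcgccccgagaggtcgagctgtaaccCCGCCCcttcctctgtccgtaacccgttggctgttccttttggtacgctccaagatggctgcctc
MRPS6: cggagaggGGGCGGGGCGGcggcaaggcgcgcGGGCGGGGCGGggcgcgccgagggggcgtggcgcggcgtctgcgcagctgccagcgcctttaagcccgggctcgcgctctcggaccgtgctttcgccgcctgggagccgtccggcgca
MRPS18A: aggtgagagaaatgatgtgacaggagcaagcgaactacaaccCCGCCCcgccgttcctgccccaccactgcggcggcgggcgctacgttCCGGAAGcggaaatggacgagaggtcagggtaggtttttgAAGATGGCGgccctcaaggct
MRPL14: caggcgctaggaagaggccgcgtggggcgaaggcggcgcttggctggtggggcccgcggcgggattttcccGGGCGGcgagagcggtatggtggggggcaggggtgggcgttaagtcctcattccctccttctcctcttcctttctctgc
In these windows the capitals of MRPS27 mark the SP1 letters CCGCCC, those of MRPS6 mark overlapping copies of GGGCGG, and that of MRPL14 marks GGGCGG. MRPS18A holds CCGCCC, the ETS core CCGGAAG and the YY1 letters AAGATGGCG.

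The promoters of 69 of the 77 genes were in the RefSeq table, with 250 bases before and 50 bases after the start. These promoters were searched on both strands for 6 short motifs, and the share that held each was set beside the share of all 27305 promoters. The ETS core CCGGAAG, the letters bound by GABPA, was in 40.6% of the members' promoters and in 10.7% of all promoters. The YY1 letters AAGATGGCG were in 18.8% and 1.85%, and the NRF1 letters GCGCANGCG in 18.8% and 8.05%. GGGCGG, bound by SP1 and its relatives, was in 60.9% and 44.6%. The E-box CACGTG, the letters that BMAL1 and its partner CLOCK bind, was in 10.1% and 7.43%, and the core ACGTG that HIF and ARNT bind was in 29.0% and 21.6%. The HIF core is part of every E-box as written here, so those counts overlap. The median GC content was 60.3% in the members' promoters and 58.3% in all. Among the members, CACGTG was in 3 of 26 promoters of genes that rose in shARNT and in 4 of 42 of those not called there, and ACGTG was in 10 of 26 and 10 of 42. In shBMAL1, CACGTG was in 1 of 6 that fell, 1 of 19 that rose and 5 of 44 not called, and ACGTG was in 2 of 6, 4 of 19 and 14 of 44. No test was made of these counts. A match is a string of letters in this window and was not tested as a binding site. Another gene started on the opposite strand within 500 bases upstream for 18 of the 69 (26.1%, beside 14.9% of all promoters), and MRPL46 and MRPS11 faced each other across 320 bases.

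In shControl, the level of the members per kilobase of transcript spanned a wide range, from 90.5 to 7827 normalised counts per kilobase with a median of 1217, and 46 of the 77 lay within 2-fold of that median. The highest were MRPL49 (7827), MRPL51 (6573), MRPL37 (5109), MRPL53 (4298) and MRPS24 (3037). The lowest were MRPL57 (90.5), MRPS36 (140), MRPS17 (178), MRPS31 (193) and MRPL50 (215). All of the highest except MRPS24 are large subunit proteins without a bacterial homologue. Lengths came from 1 annotated transcript per gene, so the order depends on that choice, at its ends as well as between near neighbours. MRPL49, MRPL51 and MRPL53 were given 501, 501 and 386 bases, and MRPL57, MRPS17 and MRPL50 2233, 1786 and 3336. The spread between replicates was small, with a median coefficient of variation over the members of 6.78% (shControl), 6.53% (shARNT) and 8.29% (shBMAL1). The widest was in MRPL42 in shBMAL1, at 1245, 1969 and 1986 counts, and in MRPS26 in shARNT, at 226, 241 and 359.8.

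As a whole the members took a larger share of the reads in both knockdowns than in shControl. They summed to 0.321%, 0.324% and 0.327% of the reads in shControl, 0.353%, 0.365% and 0.359% in shARNT and 0.341%, 0.345% and 0.339% in shBMAL1. No library of shControl overlapped either knockdown, and the shARNT libraries lay above the shBMAL1 libraries. The large subunit members held 0.218% ± 0.0030 (SD, n = 3) in shControl, 0.240% ± 0.0037 (SD, n = 3) in shARNT and 0.230% ± 0.0015 (SD, n = 3) in shBMAL1. The small subunit members held 0.106% ± 0.0007 (SD, n = 3), 0.118% ± 0.0021 (SD, n = 3) and 0.111% ± 0.0014 (SD, n = 3). The ratio of large to small subunit reads stayed between 2.02 and 2.10 in all 9 libraries. The shares are given as a description, without a test.

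**Figure D1:**
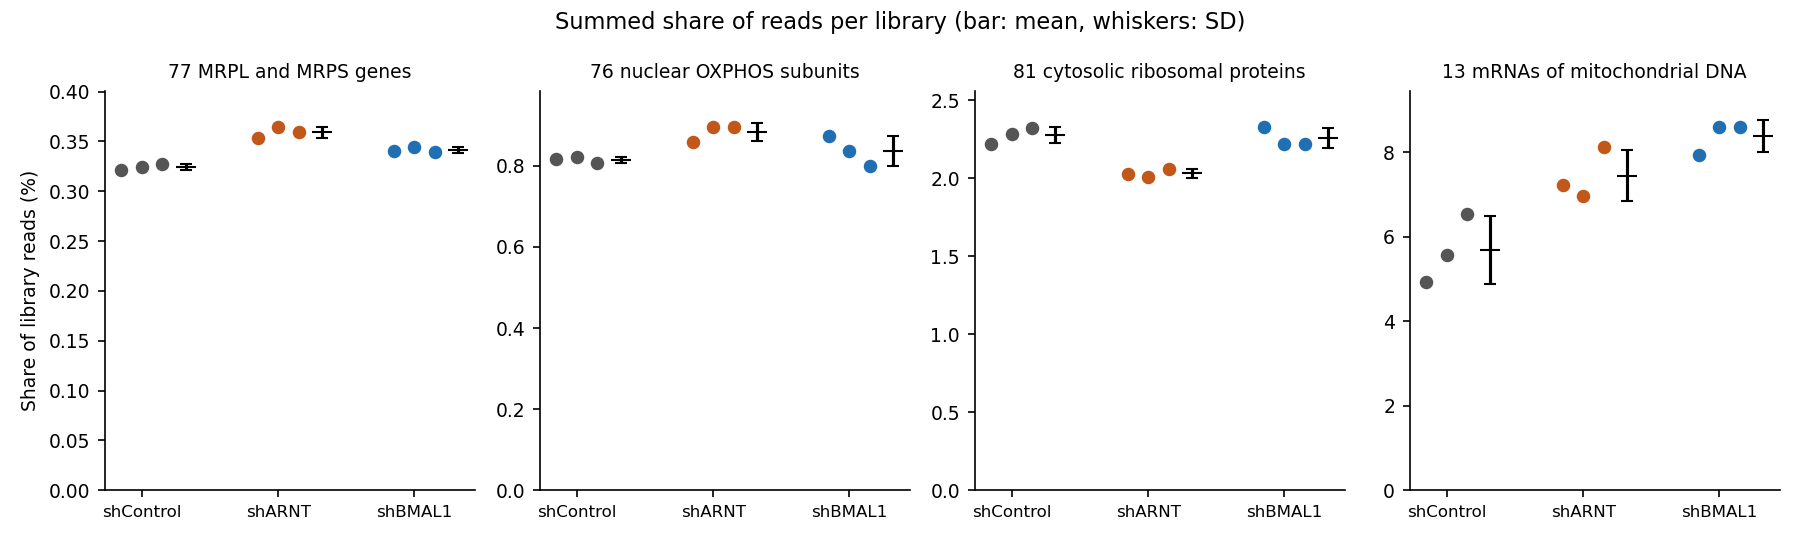
Share of the reads of each library (%, vertical axis) held by the 77 MRPL and MRPS genes, the nuclear genes of oxidative phosphorylation (OXPHOS), the cytosolic ribosomal proteins and the mRNAs of mitochondrial DNA in shControl, shARNT and shBMAL1. Points are libraries, the bar beside them is the mean and the whiskers are 1 SD, and the members' share lies between 0.353% and 0.365% in shARNT against 0.321% to 0.327% in shControl.

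To ask how each member stood after ARNT depletion, shARNT was compared with shControl by DESeq2 at an adjusted p under 0.1. Of the 77 members, 28 were higher and 1 was lower, and the median log2 fold change was 0.13 beside 0.00 over all genes tested. That is 36.4% of the members higher, while 16.5% of the 15164 genes tested were higher, and 1.30% lower beside 19.0%. Among the 10933 tested genes with a mean count at least that of the lowest member, 19.6% were higher and 22.9% lower. The changes were small: those of the members that rose ran from 0.14 to 0.48 on the log2 scale, at most 1.39-fold, and none passed 1.5-fold. All shARNT libraries lay above all shControl libraries in 26 members (33.8%) and in 20.9% of all genes tested. They lay below in 2 members (2.60%) and in 23.0% of all genes tested, so groups without overlap were common. Without shARNT replicate 2 the number higher was 17 and without shControl replicate 1 it was 18, and without shARNT replicate 3 the number lower was 2.

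The strongest rise was in MRPS6, a homologue of a bacterial small subunit protein. Its counts were 935, 847 and 947 in shControl and 1172, 1159.8 and 1456 in shARNT (log2 fold change 0.48 ± 0.10 SE, adjusted p = 1.07e-05). All shARNT libraries lay above all shControl libraries. MRPS6 shares exons on the same strand with SLC5A3, a carrier of myo-inositol, so reads of the shared part cannot be assigned with certainty, and SLC5A3 itself went the other way, from 948, 909 and 889.6 to 617, 615 and 657 (log2 fold change -0.54 ± 0.09 SE, adjusted p = 1.91e-08). MRPS9, another homologue, had 890.5, 859 and 836 counts in shControl and 1194, 1128 and 1179.8 in shARNT (log2 fold change 0.44 ± 0.08 SE, adjusted p = 3.78e-07), with a gap between the groups. Some of the deposited values of MRPS9 were fractional and were rounded.

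The other members with the strongest rise included 3 small subunit proteins found only in mitochondria. MRPS33 went from 868, 992 and 911 to 1210.2, 1259.9 and 1144 (log2 fold change 0.39 ± 0.08 SE, adjusted p = 3.59e-05) and MRPS35 from 1709.5, 1794 and 1735 to 2123, 2427 and 2275 (log2 fold change 0.38 ± 0.07 SE, adjusted p = 4.44e-07). MRPS31 went from 271, 269.9 and 318 to 348, 367 and 387 (log2 fold change 0.36 ± 0.13 SE, adjusted p = 0.022). In all 3 the groups did not overlap, with shARNT above, as in 20.9% of all genes tested. The call of MRPS31 was lost under 3 of 14 alternatives (without shControl replicate 1 or 2, or shARNT replicate 3). MRPL54, a protein of the stalk of the large subunit, went from 272, 349 and 357 to 477, 392 and 383 (log2 fold change 0.36 ± 0.14 SE, adjusted p = 0.036), with its lowest shControl library well below the rest of that group, and its call was also lost under 3 of 14 (without shControl replicate 1 or shARNT replicate 1, or with the replicate number as a block). The member that fell was MRPL14, a homologue of a bacterial protein on the face of the large subunit that meets the small one. Its counts were 1198, 1477 and 1528 in shControl and 1095, 1068 and 1175 in shARNT (log2 fold change -0.33 ± 0.09 SE, adjusted p = 0.00229), and the groups did not overlap, although shControl replicate 1 lay close to the highest shARNT library.

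By role, the rise in shARNT was spread over both subunits. It took in 18 of 50 large subunit members (36%) and 10 of 26 of the small subunit (38.5%), with medians of 0.13 and 0.12. Of all genes tested 16.5% were higher, and of those with at least the lowest member's mean count 19.6%. Members without a bacterial homologue were higher in 15 of 30 cases (50%, median 0.19, 0 lower) and homologues in 13 of 46 (28.3%, median 0.07, 1 lower). In the large subunit alone, 11 of 20 members without a homologue rose (55%) and all 20 log2 fold changes were above 0. Of its 30 homologues 7 rose (23.3%), not far from the 19.6%. The stalk, which brings translation factors to the ribosome, had 3 of 5 members higher (MRPL10, MRPL53 and MRPL54). The central protuberance had 3 of 8 higher and the rim of the tunnel through which the new protein leaves had 3 of 6, among them MRPL45 at log2 fold change 0.34 ± 0.08 SE, adjusted p = 5.50e-04. Of the 6 members near the catalytic and decoding centres (MRPL2, MRPL3, MRPL4, MRPL16, MRPS5 and MRPS12), 0 passed the test in either direction, and their log2 fold changes lay between -0.08 and 0.06. A difference between these groups of members was not tested.

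**Figure D2:**
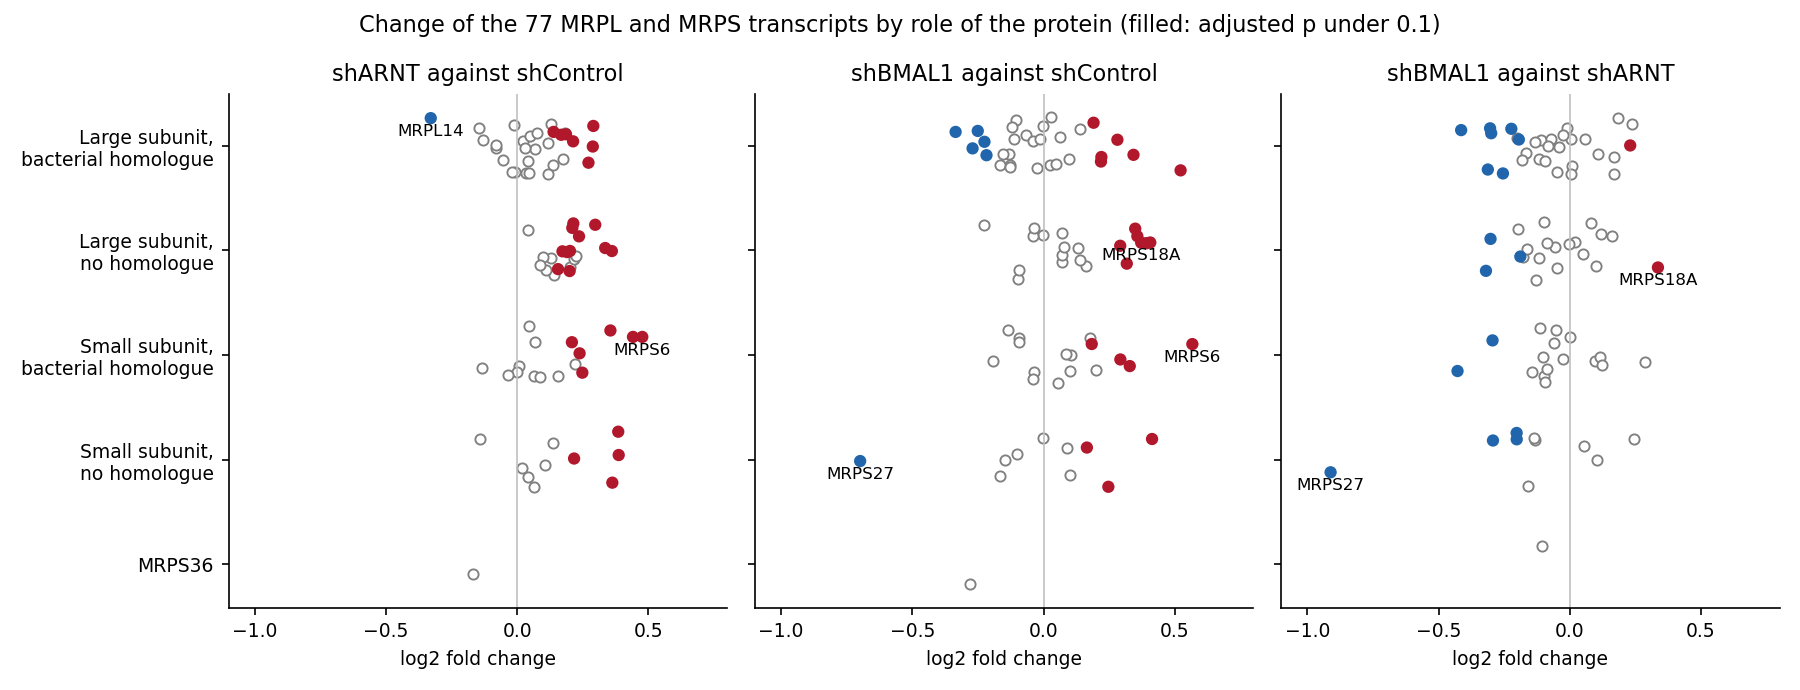
Log2 fold change (horizontal axis) of each of the 77 genes in the 3 comparisons, in rows by the role of the protein. Filled points passed an adjusted p under 0.1 (red higher, blue lower) and open points did not: 28 were higher and 1 lower in shARNT, 20 higher and 6 lower in shBMAL1, and 2 higher and 16 lower in shBMAL1 against shARNT.

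The comparison of shBMAL1 with shControl gave fewer rises and more falls. Of the 77 members 20 were higher and 6 lower, with a median log2 fold change of 0.05 beside 0.02 over all genes. The 26.0% higher stood beside 17.4% of the 19036 genes tested, and the 7.79% lower beside 19.4%. Among the 11088 tested genes with a mean count at least that of the lowest member, 20.5% were higher and 29.3% lower. The rises ran from 0.17 to 0.57 on the log2 scale, and 1 member passed 1.5-fold, a fall. All shBMAL1 libraries lay above all shControl libraries in 19 members (24.7%) and in 22.3% of all genes tested. They lay below in 6 members (7.79%) and in 22.9% of all genes tested, so a gap between groups was common. Without shControl replicate 1 the number higher was 11, and the median 0.01, and without shBMAL1 replicate 2 the number lower was 3. Both knockdowns were set against the same shControl libraries, so the values of a member in these comparisons are not independent.

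The largest change of any member was the fall of MRPS27, a small subunit protein of the pentatricopeptide repeat family that has no bacterial counterpart. It had 1010.2, 904 and 891 counts in shControl and 588, 591 and 552 in shBMAL1, a fold of 0.616 (log2 fold change -0.70 ± 0.10 SE, adjusted p = 4.08e-11). The shBMAL1 libraries were tightly grouped and far below every other library. In shARNT its counts were 986, 1194 and 1071 (log2 fold change 0.22 ± 0.09 SE, adjusted p = 0.062), a small rise whose groups overlapped and whose call was lost under 6 of 14 alternatives. The start of MRPS27 lies 133 bases from that of PTCD2, a gene on the opposite strand with another pentatricopeptide repeat protein and an overlapping exon. PTCD2 had 530.3, 409.9 and 439.7 counts in shControl, 429.7, 469 and 451 in shARNT and 428, 469.6 and 449 in shBMAL1, and did not pass the test in either knockdown (log2 fold change -0.04 ± 0.13 SE, adjusted p = 0.874 in shBMAL1).

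The other members that fell in shBMAL1 were 5 homologues of bacterial large subunit proteins. MRPL22, at the tunnel exit, had 716, 689 and 690.5 counts in shControl and 517, 580.5 and 566 in shBMAL1 (log2 fold change -0.33 ± 0.10 SE, adjusted p = 0.00507), with no overlap. MRPL55, in the central protuberance, had 510.1, 526 and 509 and 419, 434 and 429.9 (log2 fold change -0.27 ± 0.11 SE, adjusted p = 0.0462), and its groups were tight and apart, but the call was lost under 8 of 14 alternatives. MRPL9 had 1551, 1613 and 1600.3 and 1416, 1386 and 1209 (log2 fold change -0.25 ± 0.09 SE, adjusted p = 0.0135). MRPL33 (log2 fold change -0.22 ± 0.10 SE, adjusted p = 0.0649) and MRPL4, which lines the exit tunnel (log2 fold change -0.22 ± 0.10 SE, adjusted p = 0.0711), were near the threshold and each was lost under 7 of 14 alternatives. MRPL9 was, with MRPS27, the only member called in opposite directions in the knockdowns: in shARNT it had 1698, 1785 and 1855 counts (log2 fold change 0.17 ± 0.07 SE, adjusted p = 0.0492), a call lost under 6 of 14 alternatives. MRPL9 overlaps OAZ3 on the opposite strand.

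Among the members that rose in shBMAL1, MRPS6 led again, with 1427, 1257 and 1364 counts (log2 fold change 0.57 ± 0.09 SE, adjusted p = 6.15e-09), while SLC5A3 had 830.0, 722 and 851 (log2 fold change -0.19 ± 0.10 SE, adjusted p = 0.121). MRPL1, whose bacterial counterpart forms a mobile stalk beside the tRNA exit site, had 530.3, 455 and 500.4 in shControl, 528, 625 and 657 in shARNT and 658, 777 and 701 in shBMAL1 (log2 fold change 0.52 ± 0.11 SE, adjusted p = 2.46e-05). Its shBMAL1 libraries were the highest and did not overlap shControl. MRPS31 had 319, 434 and 393 counts (log2 fold change 0.41 ± 0.15 SE, adjusted p = 0.0193) and MRPL54 had 471, 433 and 394 (log2 fold change 0.41 ± 0.14 SE, adjusted p = 0.014), and each call was lost under 1 of 14 alternatives, MRPS31 without shBMAL1 replicate 2 and MRPL54 without shControl replicate 1. MRPL46, of the central protuberance, went from 340.1, 337 and 314 to 449, 392 and 462 (log2 fold change 0.39 ± 0.13 SE, adjusted p = 0.00829). Its head-to-head neighbour MRPS11 had 1219, 1181 and 1266 in shControl and 1429.7, 1214 and 1287 in shBMAL1 (log2 fold change 0.10 ± 0.09 SE, adjusted p = 0.448).

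Of the 3 proteins related to bacterial S18, MRPS18A was called in shBMAL1 and the others were not. MRPS18C takes the place of S18, while MRPS18A and MRPS18B sit elsewhere in the ribosome and were counted with the members without a bacterial homologue. MRPS18A, which is built into the large subunit, had 621, 663 and 592 counts in shControl, 602, 671 and 652 in shARNT and 851, 845 and 736 in shBMAL1 (log2 fold change 0.37 ± 0.10 SE, adjusted p = 0.00179). All 3 shBMAL1 libraries lay above the 6 others. MRPS18B had 3051, 2991 and 2908 counts in shBMAL1 and 2836, 3117 and 3006 in shControl (log2 fold change -0.00 ± 0.07 SE, adjusted p = 0.982). MRPS18C had 309.8, 399 and 408 and 361, 327 and 351 (log2 fold change 0.10 ± 0.14 SE, adjusted p = 0.646). MRPS18A overlaps an exon of RSPH9 on the opposite strand.

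**Figure D3:**
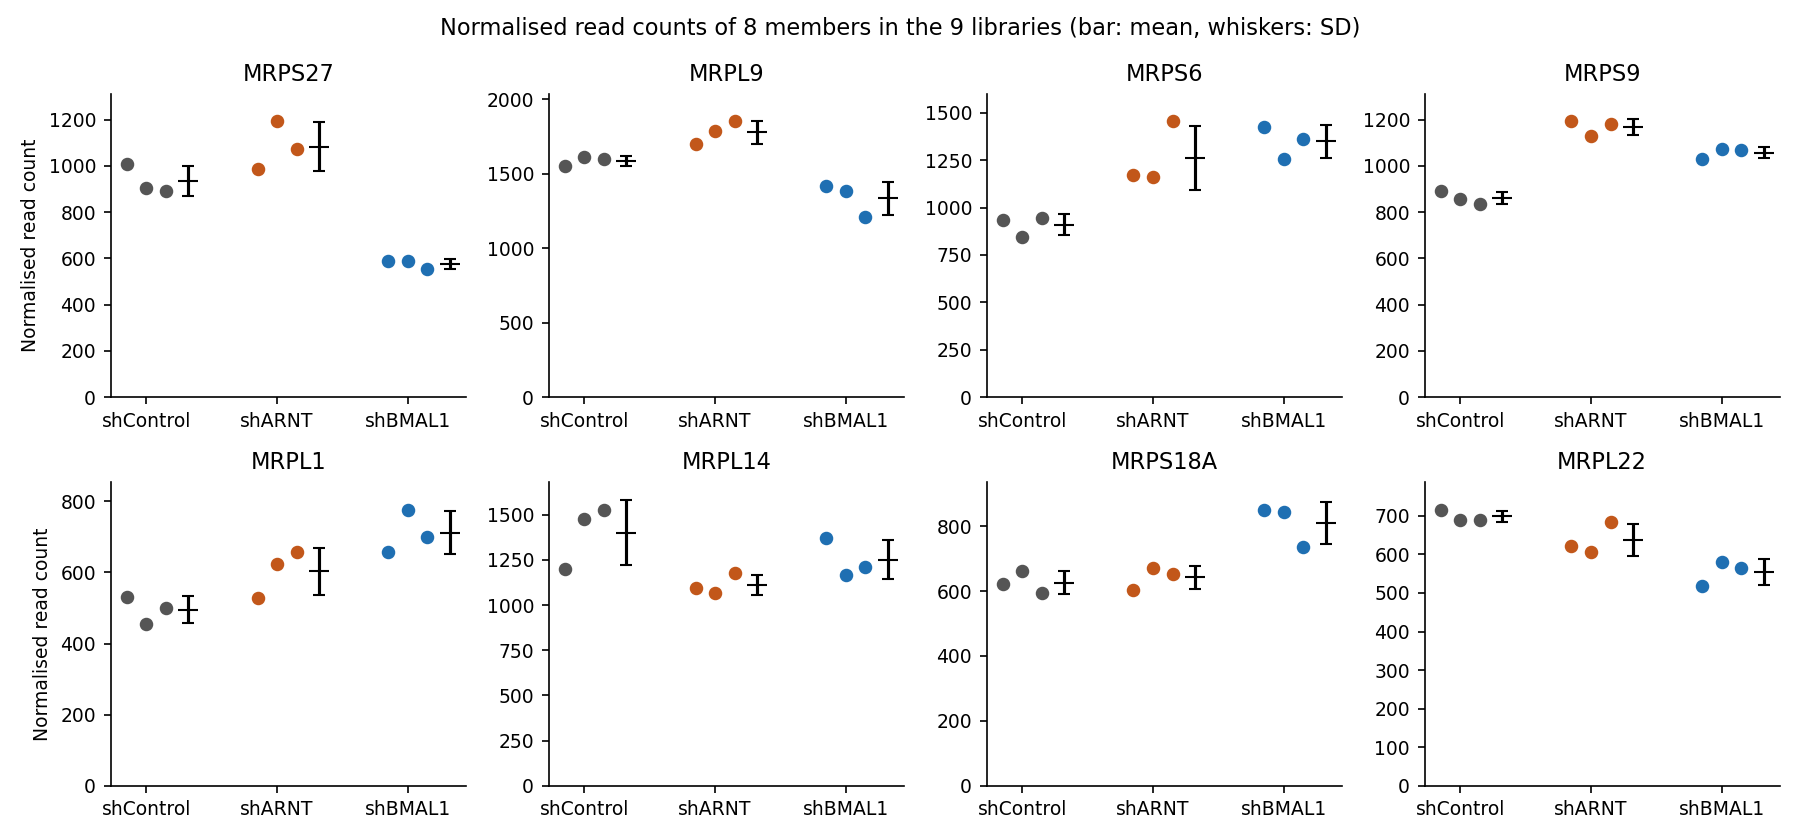
Normalised read counts (vertical axis, from 0) of 8 members in the 3 libraries of shControl, shARNT and shBMAL1, with the mean (bar) and 1 SD (whiskers) beside the points. MRPS27 stands at 552 to 591 counts in shBMAL1 against 891 to 1194 in the other libraries, and MRPS6 and MRPS9 are above shControl in every knockdown library.

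By role, 13 of 50 large subunit members (26%) were higher in shBMAL1 and 5 (10%) lower. Of 26 small subunit members 7 (26.9%) were higher and 1 (3.85%) lower. Of all genes tested, 17.4% were higher and 19.4% lower, and of those with at least the lowest member's mean count 20.5% and 29.3%. Homologues of bacterial proteins had 10 higher (21.7%, near these shares) and 5 lower (10.9%) of 46 (median -0.01). Members without a homologue had 10 higher (33.3%) and 1 lower (3.33%) of 30 (median 0.08). In the stalk 3 of 5 were higher (MRPL10 at log2 fold change 0.22 ± 0.08 SE, adjusted p = 0.0199, MRPL53 and MRPL54). The central protuberance had 4 of 8 higher and 1 lower. The tunnel exit had 2 of 6 higher and 1 lower. Near the catalytic and decoding centres MRPL4 was the 1 of 6 that was lower (16.7%, near the 19.4% of all genes). All 6 log2 fold changes there were below 0, between -0.22 and -0.03. The 3 most abundant members per kilobase were higher in shARNT and did not pass the test in shBMAL1, and their difference between the knockdowns did not pass either: MRPL49 (log2 fold change 0.20 ± 0.05 SE, adjusted p = 6.91e-04 in shARNT, log2 fold change 0.14 ± 0.07 SE, adjusted p = 0.105 in shBMAL1), MRPL51 (log2 fold change 0.24 ± 0.07 SE, adjusted p = 0.00389 and log2 fold change 0.07 ± 0.08 SE, adjusted p = 0.564) and MRPL37 (log2 fold change 0.17 ± 0.06 SE, adjusted p = 0.0189 and log2 fold change 0.07 ± 0.07 SE, adjusted p = 0.483). Their log2 fold changes in shBMAL1 against shARNT were -0.06 (adjusted p = 0.587), -0.16 (adjusted p = 0.163) and -0.10 (adjusted p = 0.34).

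The direct comparison of shBMAL1 with shARNT tests where the knockdowns differ. Of the 77 members 16 were lower in shBMAL1 than in shARNT and 2 were higher, with a median log2 fold change of -0.09 beside 0.01 over all genes. The 20.8% lower stood beside 18.0% of the 18181 genes tested, and the 2.60% higher beside 17.3%. Among the 11185 tested genes with a mean count at least that of the lowest member, 26.3% were lower and 20.3% higher, so the share of members lower was near that of all genes and the share higher was small. All shBMAL1 libraries lay below all shARNT libraries in 15 members (19.5%) and in 21.7% of all genes tested. They lay above in 5 members (6.49%) and in 22.2% of all genes tested. Without shARNT replicate 3, 10 were lower and 4 higher. The number higher was 6 without shBMAL1 replicate 1 and 1 without shARNT replicate 2.

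MRPS27 showed the largest difference, at log2 fold change -0.91 ± 0.10 SE, adjusted p = 1.19e-17. MRPS15, a homologue of a bacterial protein that binds the small rRNA, had 1912, 1840.3 and 1722 counts in shARNT and 1487, 1377 and 1210.3 in shBMAL1 (log2 fold change -0.43 ± 0.09 SE, adjusted p = 1.92e-05), while shControl had 1592, 1424 and 1638. MRPL9 differed by a similar amount (log2 fold change -0.41 ± 0.09 SE, adjusted p = 1.33e-05), with every shARNT library above every shControl library and every shBMAL1 library below. MRPL41 had 704, 598 and 649 and 452, 509 and 604 counts (log2 fold change -0.32 ± 0.12 SE, adjusted p = 0.0346), groups that overlapped, and the call was lost under 3 of 14 alternatives (without shARNT replicate 1, or shBMAL1 replicate 1 or 2). MRPL55 (log2 fold change -0.31 ± 0.11 SE, adjusted p = 0.0169) and MRPL19 (log2 fold change -0.30 ± 0.09 SE, adjusted p = 0.00392), a homologue of bacterial L19, were also lower, MRPL19 with 1529.8, 1520.2 and 1409 counts in shARNT and 1107, 1328 and 1181 in shBMAL1. The members higher in shBMAL1 were MRPS18A (log2 fold change 0.34 ± 0.10 SE, adjusted p = 0.00518) and MRPL32 (log2 fold change 0.23 ± 0.09 SE, adjusted p = 0.0319), which had 1315, 1178 and 1169.8 in shARNT and 1543, 1389.8 and 1369 in shBMAL1. The call of MRPL32 was lost under 3 of 14 alternatives (without shARNT replicate 2 or 3, or shBMAL1 replicate 1), and that of MRPS18A under 0. MRPL32 is a homologue of a bacterial large subunit protein that must be cut by the m-AAA protease before it is built in. In the small subunit 4 of 10 members without a bacterial homologue (MRPS23, MRPS27, MRPS34 and MRPS35) and 2 of 16 homologues (MRPS10 and MRPS15) were lower. That is 40% and 12.5%, beside 18.0% of all genes tested and 26.3% of those with at least the lowest member's mean count. In the stalk and at the tunnel exit 0 members passed in either direction at the adjusted p.

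**Figure D4:**
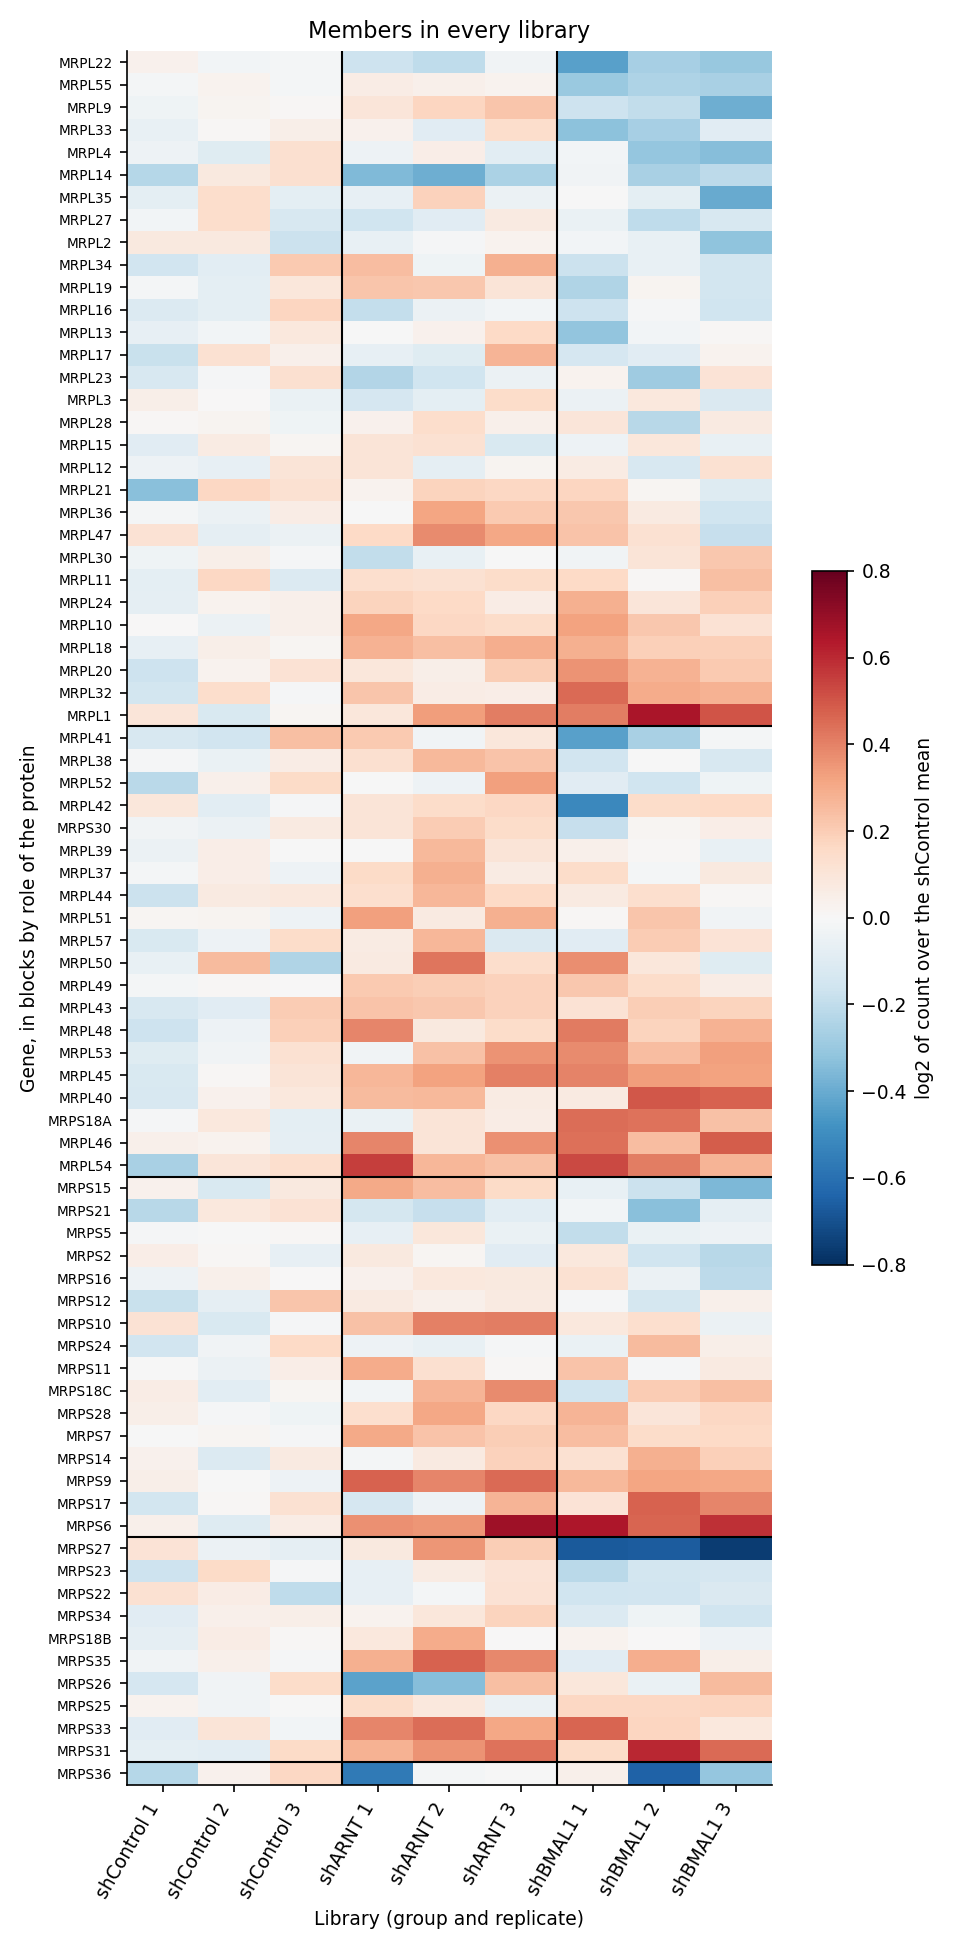
Log2 of the normalised read count over the shControl mean (colour scale, red above and blue below) for the 77 genes (rows, in blocks by role: large subunit with and without bacterial homologue, small subunit with and without, MRPS36) in the 9 libraries (columns). MRPS27 is blue in all 3 shBMAL1 libraries and MRPS6 is red in all 6 knockdown libraries.

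The proteins of the mitochondrial ribosome that bear other symbols were looked at separately. Of 6 (DAP3, PTCD3, AURKAIP1, CHCHD1, GADD45GIP1 and ICT1), 0 passed in shARNT, 2 were lower in shBMAL1 and 4 were lower in shBMAL1 than in shARNT. That is 33.3% and 66.7% lower, beside 19.4% and 18.0% of all genes tested. DAP3, a GTP-binding protein of the small subunit, had 4659.7, 4483 and 4615 counts in shControl, 3870.3, 4631 and 4497 in shARNT and 3647, 3466 and 3487 in shBMAL1 (log2 fold change -0.38 ± 0.06 SE, adjusted p = 3.90e-08), with every shBMAL1 library below the other 6. AURKAIP1 was the other (log2 fold change -0.19 ± 0.09 SE, adjusted p = 0.075).

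Of 17 factors of mitochondrial translation, 8 were higher in shARNT and 0 lower, which is 47.1% higher beside 16.5% of all genes tested. The largest rises were in MTIF2, the initiation factor that places the first tRNA (log2 fold change 0.37 ± 0.07 SE, adjusted p = 2.51e-06), MRRF, which recycles ribosomes (log2 fold change 0.37 ± 0.07 SE, adjusted p = 4.43e-06), and MTRF1, related to release factors (log2 fold change 0.34 ± 0.14 SE, adjusted p = 0.0528). GFM1, the elongation factor that moves the ribosome along, rose by less (log2 fold change 0.31 ± 0.06 SE, adjusted p = 5.92e-06). In shBMAL1 2 were higher, GUF1 (log2 fold change 0.32 ± 0.11 SE, adjusted p = 0.0167) and MTIF2 (log2 fold change 0.25 ± 0.08 SE, adjusted p = 0.00939), and OXA1L, which inserts new proteins into the inner membrane, was lower (log2 fold change -0.18 ± 0.07 SE, adjusted p = 0.0535). The 11.8% higher and 5.88% lower were below the 17.4% and 19.4% of all genes. In the direct comparison 6 were lower and 0 higher, 35.3% lower beside 18.0%. Of 25 genes of ribosome assembly and rRNA modification, 4 were higher and 0 lower in shARNT, led by MTG2 (log2 fold change 0.30 ± 0.08 SE, adjusted p = 9.17e-04). The 16% higher was near the 16.5% of all genes tested. In shBMAL1 3 were higher, led by MTERF4 (log2 fold change 0.45 ± 0.08 SE, adjusted p = 7.78e-08), and 3 lower, led by NGRN, which keeps the large rRNA stable (log2 fold change -0.63 ± 0.08 SE, adjusted p = 1.89e-13), and MPV17L2 (log2 fold change -0.43 ± 0.17 SE, adjusted p = 0.0418), 12% each way beside 17.4% and 19.4% of all genes. Directly compared, 7 were lower and 1 higher, 28% and 4% beside 18.0% and 17.3%. Of 20 genes that charge mitochondrial tRNAs, 4 were higher and 0 lower in shARNT (QRSL1 first, log2 fold change 0.46 ± 0.10 SE, adjusted p = 4.08e-05), which is 20% higher beside 16.5% of all genes, and 5 were higher and 2 lower in shBMAL1 (25% and 10% beside 17.4% and 19.4%), WARS2 at log2 fold change 0.54 ± 0.11 SE, adjusted p = 9.18e-06 and CARS2 at log2 fold change -0.49 ± 0.09 SE, adjusted p = 3.99e-07. Directly compared, 5 of these were lower and 3 higher, 25% and 15% beside 18.0% and 17.3% of all genes, so the higher shares of this list were near those of all genes in shARNT and in the direct comparison.

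Most of the mRNAs that come from mitochondrial DNA were higher in both knockdowns, while its rRNAs, taken by their symbols, differed in their calls. Of the 13 mRNAs, 11 were higher in shARNT (median 0.43) and 10 in shBMAL1 (median 0.52), and 0 were lower in either. That is 84.6% and 76.9% higher, beside 16.5% and 17.4% of all genes tested. They took 4.94%, 5.56% and 6.54% of the reads in shControl, 7.23%, 6.97% and 8.13% in shARNT and 7.93%, 8.6% and 8.6% in shBMAL1. These counts moved with single libraries, down to 3 in shARNT without shControl replicate 2 or shARNT replicate 3 and to 7 in shBMAL1 without shControl replicate 2 or shBMAL1 replicate 2 or 3. The large ribosomal RNA RNR2 went from 157517, 147117 and 184091 counts to 186401, 193376 and 187296 in shARNT (log2 fold change 0.22 ± 0.07 SE, adjusted p = 0.00582) and 241664, 327890.0 and 310304 in shBMAL1 (log2 fold change 0.85 ± 0.10 SE, adjusted p = 1.05e-15). The small ribosomal RNA RNR1 was higher in shBMAL1 (log2 fold change 0.38 ± 0.09 SE, adjusted p = 2.59e-04) and had a log2 fold change of -0.04 in shARNT (adjusted p = 0.886). Of 5 genes that transcribe mitochondrial DNA, TFB2M was higher in both knockdowns (log2 fold change 0.42 ± 0.10 SE, adjusted p = 2.13e-04 in shARNT, log2 fold change 0.31 ± 0.12 SE, adjusted p = 0.0254 in shBMAL1), TEFM was higher in shARNT (log2 fold change 0.27 ± 0.13 SE, adjusted p = 0.0995), and the polymerase POLRMT was lower in shBMAL1 (log2 fold change -0.27 ± 0.09 SE, adjusted p = 0.00816). The 40% higher in shARNT stood beside 16.5% of all genes, while the 20% each way in shBMAL1 was near the 17.4% higher and 19.4% lower.

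Among 9 nuclear regulators of these genes, the coactivator PPARGC1A changed most. It had 50.3, 61 and 36.4 counts in shControl, 156, 179.7 and 93.4 in shARNT (log2 fold change 1.54 ± 0.28 SE, adjusted p = 5.50e-07) and 384, 432 and 428 in shBMAL1 (log2 fold change 3.07 ± 0.19 SE, adjusted p = 1.17e-55), and the 3 groups did not overlap. In shARNT the related coactivator PPRC1 (log2 fold change 0.16 ± 0.06 SE, adjusted p = 0.0237) and the receptor ESRRA (log2 fold change 0.25 ± 0.11 SE, adjusted p = 0.068) were also higher and MYC was lower (log2 fold change -0.24 ± 0.07 SE, adjusted p = 0.00299). In shBMAL1, YY1 was higher (log2 fold change 0.25 ± 0.08 SE, adjusted p = 0.0114) and GABPB1, a subunit of the ETS factor that binds CCGGAAG, was lower (log2 fold change -0.29 ± 0.10 SE, adjusted p = 0.0182). NRF1 had log2 fold changes of -0.01 and -0.04 and did not pass in either. The part of these factors in the members' values was not tested.

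The members were set beside 2 other families of about their size. The cytosolic ribosomal proteins, which share no subunit with the mitochondrial ribosome, had 39 of 78 tested lower and 0 higher in shARNT (median -0.18), the opposite side from the members, or 50% lower beside 19.0% of all genes. In shBMAL1 they had 13 lower and 6 higher (median -0.01), and the 16.7% lower was near the 19.4% of all genes. In the direct comparison 5 were lower and 32 higher (median 0.15), or 41.0% higher beside 17.3%. Their share of the reads was 2.22%, 2.28% and 2.33% in shControl, 2.03%, 2.01% and 2.06% in shARNT and 2.33%, 2.22% and 2.22% in shBMAL1. The nuclear genes of OXPHOS, 76 in all, had 25 higher and 3 lower in shARNT (median 0.09), 20 higher and 7 lower in shBMAL1 (median 0.04), and 12 in each direction in the direct comparison (median -0.01). The shares higher were 32.9% in shARNT and 26.3% in shBMAL1, beside 16.5% and 17.4% of all genes, and the 15.8% each way in the direct comparison was near the 18.0% lower and 17.3% higher of all genes. No test was made of the difference between these families and the members.

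**Figure D5:**
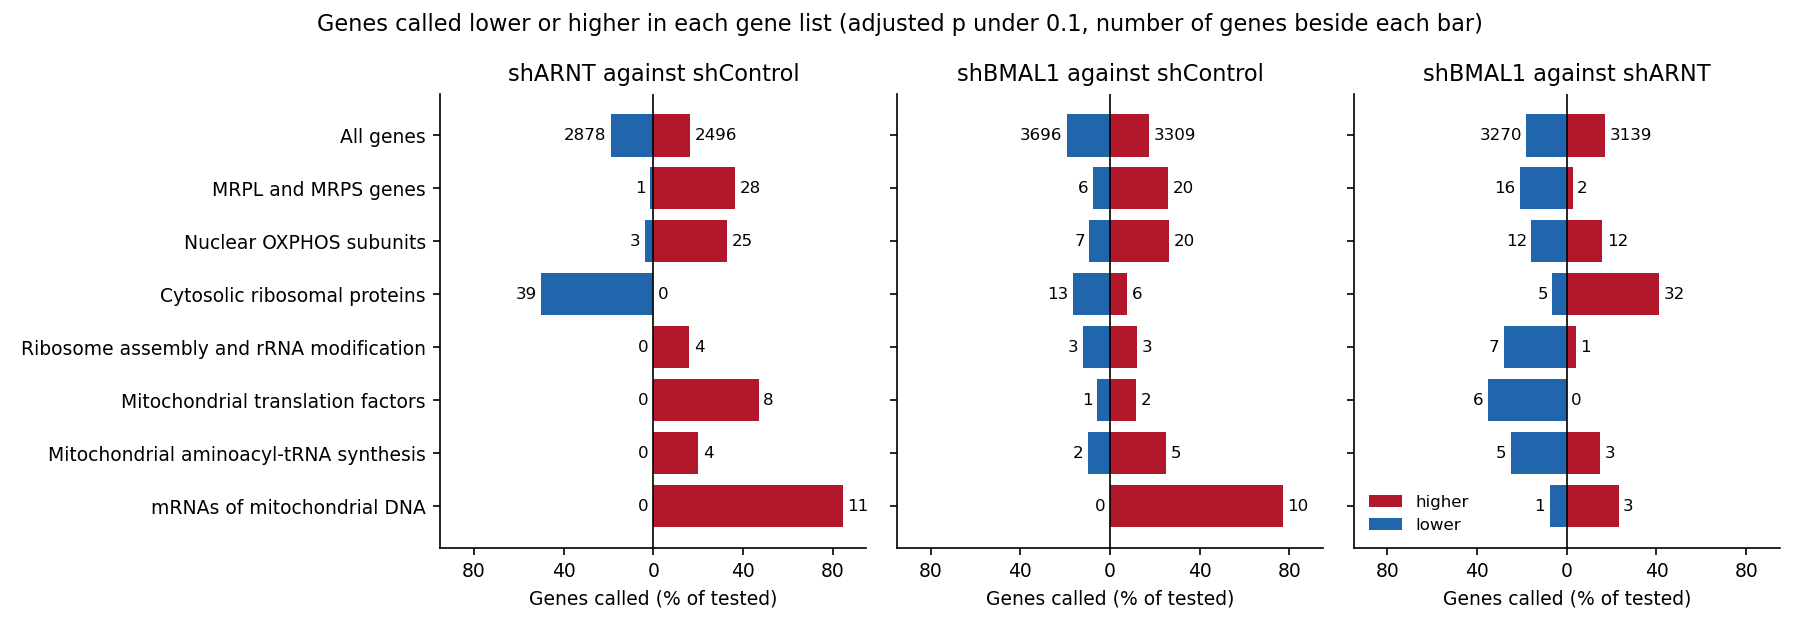
Share of the tested genes of each list (%, horizontal axis, lower to the left in blue and higher to the right in red) that passed an adjusted p under 0.1 in each of the 3 comparisons, with the number of genes beside each bar. In shARNT 28 of the 77 MRPL and MRPS genes were higher and 1 lower, while 39 cytosolic ribosomal proteins were lower and 0 higher.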

How the data were processed

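RNA from 9 libraries of 786O cells (3 each of shControl, shARNT and shBMAL1, grouped by their labels) was analysed. The values were estimated counts deposited by the authors, the reads of each gene on a linear scale, from stranded mRNA libraries. The methods of the study name GRCh37, SeqMan NGen and ArrayStar, while the submitters' processing notes name hg38, STAR and DESeq2, and which made this table was not settled here. The annotation and the strand setting of the counting are not given in the sources used here, so 20 members that overlap an exon of a coding gene on the opposite strand and 13 that do so on the same strand are uncertain to that extent. The value 0.009, which filled 46.3% of the cells, was taken as 0, and fractional values were rounded. Of 38074 rows, 53 were added to a row of the same name, and 28 named by a date were left as they were. Depth of 33793043 to 35444731 reads gave the members at least 106 counts per library.

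Each comparison was a DESeq2 1.42.0 fit (R 4.3.3) of its 6 libraries over the whole table with median-of-ratios scaling, the Wald test and Benjamini-Hochberg adjustment over all genes tested. Genes passed at an adjusted p under 0.1, as in the study. Fold changes were not shrunken. Printed counts were divided by size factors over all 9 libraries, and levels per kilobase used the transcript of lower median length in GENCODE (GRCh37). The fit was run on simulated counts, but the changes put into them were larger than nearly all of those called in the members. Recovery of changes as small as those of most members was not tested. Alternatives were edgeR 4.0.16, other scalings, a filter of 10 counts in 3 libraries, an adjusted p under 0.05, a minimum of 1.5-fold, 1 fit of 9 libraries, GC correction, a replicate block and leaving out each library. No pair of libraries was alike within sampling noise (chi-square per degree of freedom of at least 7.18 within groups). The members, the gene lists and the tests were chosen with earlier results of these data known. The named members were the 6 most lowered and 6 most raised that passed in each comparison, those called in opposite directions in the knockdowns, the 5 highest and 5 lowest per kilobase and the 3 MRPS18 genes, and from the other lists up to 3 each way. MRPS11, MRPL42, MRPS26, MRPL10, MRPL45, SLC5A3, PTCD2, GFM1 and NRF1 were named after their values were seen, as was the comparison with genes of at least the lowest member's mean count.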

Additional observations from a re-analysis of the deposited data

Results flagged for a closer look

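MRPS27 and MRPL9 were the members called higher in shARNT and lower in shBMAL1, and the difference between the knockdowns passed the test in both. They were named for those opposite calls, and the direct fit reuses the same knockdown libraries. A pass there, and under the alternatives, was therefore largely set by that choice. In the direct comparison of shBMAL1 with shARNT, MRPS27 had a log2 fold change of -0.91 (adjusted p = 1.19e-17 by DESeq2), with all 3 shBMAL1 libraries below all 3 shARNT libraries. MRPL9 had -0.41 (adjusted p = 1.33e-05), with the same separation. Both differences passed under all 14 alternatives, which leave out the minimum of 1.5-fold. At that minimum MRPL9 (a fold of 0.751) did not pass. The rise in shARNT alone did not pass under 6 of 14 for either gene.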

How the results depend on the processing

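The 45 log2 fold changes of named members that had passed the test and were recomputed kept their direction in all 630 alternative values, 96 of these no longer passed, and 24 of the 45 values passed under all. A minimum change of 1.5-fold left 0 members higher and 0 lower in shARNT, 0 and 1 in shBMAL1, and 0 and 1 in the direct comparison. Leaving out each library in turn gave 17 to 23 higher and 1 to 2 lower in shARNT, 11 to 18 and 3 to 8 in shBMAL1, and 1 to 6 and 10 to 15 in the direct comparison, against 28 and 1, 20 and 6, and 2 and 16. These fits have fewer samples, and the further cause was not tested. The 2 members higher in the direct comparison were 5 with edgeR, with scaling to the library total or with the count filter, and 4 in 1 fit of 9 libraries or with GC correction. No scaling moved the median of all genes by over 0.1 (log2). The mean share of reads was 0.346%, 0.391% and 0.377% in shControl, shARNT and shBMAL1 without reads of mitochondrial DNA in the total, and 0.303%, 0.334% and 0.318% without MRPL37. The replicate numbers did not pair the libraries: same-numbered libraries of different groups had correlations of their deviations from -0.154 to 0.105, and not every library correlated best with its own number. With the replicate number as a block, 18 members were higher in shARNT and 3 lower in shBMAL1, and all genes called went from 5374 to 4150, from 7005 to 5742 and from 6409 to 5388 in the 3 comparisons. With 3 libraries a group, changes of a member near 0.2 on the log2 scale, about 2 standard errors, lay close to what could be told from replicate spread.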
